A study of Mus musculus with 4 samples.

Results

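The 35 genes described here encode the WNT ligands, their Frizzled receptors and co-receptors, and the factor that carries WNT proteins to the cell surface. They were taken by name from a fixed list of 19 WNT ligands, 10 Frizzled receptors, 5 further receptors and co-receptors (Lrp5, Lrp6, Ror1, Ror2 and Ryk) and Wls, and all 35 were found among the 21887 protein-coding genes of the RefSeq table. Open chromatin of mouse hair follicle stem cells (HFSC) was mapped by ATAC-seq, which reads out where a transposase can insert adapters into DNA. The cells were sorted as Ly-6A/E-, CD34+ and CD45f+. The study compared 2 samples of genotype Irx5KO with 2 of genotype WT, and 1 peak list per genotype, pooled over both replicates, was deposited. The labels describe neither the Irx5 allele nor the strain, age or sex of the mice, and no agent or time point is named. With 1 list per genotype there is no spread between replicates and no test between genotypes. Differences are therefore given as counts, and the 95% Wilson intervals cover counting error only, with neighbouring peaks not being independent.

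WNT proteins are secreted, lipid-modified signals. They bind Frizzled receptors together with Lrp5 or Lrp6, which stabilises beta-catenin and lets it act with TCF/LEF factors, while Ror1, Ror2 and Ryk receive WNT signals mainly along routes that do not need beta-catenin. In the hair follicle, WNT signalling through beta-catenin is the classical trigger that moves resting stem cells of the bulge and hair germ into a new growth phase. Irx5, the gene altered in the study, belongs to the Iroquois group of homeobox genes, and the series title places it in DNA damage repair and HFSC activation.

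Each peak went to the coding gene whose closer end lay nearest to the peak midpoint, up to 50 kb away. By this rule 463 of 484992 Irx5KO peaks and 394 of 498061 WT peaks on the 21 standard chromosomes belonged to the 35 genes. A peak was called shared when it overlapped a peak of the other list by at least 1 bp, and otherwise Irx5KO-only or WT-only. A missing peak does not show closed chromatin, because depth and threshold set what is listed, and the read depth behind both lists is unknown. The labelled cell type was checked on 10 HFSC genes, among them Cd34, Krt15, Sox9 and Lhx2, and all 10 had a gene-end peak in both lists, as did 75.2% of all coding genes, so the count says little about identity. A gene-end peak is any peak that reaches within 1000 bp of either annotated end of the gene. Of 22 markers of fibroblasts, melanocytes, immune, endothelial and Schwann cells, 12 had a gene-end peak in both lists. Of the other 10 markers, 1 had it in Irx5KO alone (Pdgfra), 5 in WT alone (Tyr, Mlana, Ptprc, Cd74 and Cdh5) and 4 had none (Cd3e, Cd207, Pecam1 and Sox10). Over all coding genes 6.07% had it in Irx5KO alone, 3.99% in WT alone and 14.7% in neither list. Of 4 markers of the upper follicle and epidermis, Krt1, Krt10 and Krt79 had a gene-end peak in Irx5KO alone, and Ly6a, which encodes the Ly-6A antigen that the sort selects against, had one in both lists. All 4 were covered more in Irx5KO within 50 kb, while their genotype-only peaks numbered 4 and 5. The part of other cell types in the results was not tested.

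At several transcription starts of WNT genes the lists differed in cover. RefSeq promoter windows, from 250 bases before to 50 bases after a transcript start (build GRCm38.p6), were at hand for 25 of the 35 genes, with 28 windows in all. Peaks covered at least 1 base of 25 windows in Irx5KO and of 21 in WT. In 4 windows a peak was listed in Irx5KO and none in WT, and the reverse occurred in 0 windows. Over all 21263 promoter windows of coding genes, 6.68% were covered in Irx5KO and not in WT, and 3.37% the reverse. Among windows with at least 30 CG dinucleotides, the median of the members, these were 5.39% and 0.64%. The 4 windows belonged to Wnt10b, a ligand known for driving hair growth, to inner starts of Wnt5b and Wnt11, and to Ror2, a receptor of Wnt5a. Of these only the Ror2 window, with 32 CG, reached 30. Those of Wnt10b (18), Wnt5b (7) and Wnt11 (23) did not, so the CG-rich windows are no like comparison for them. Wnt4, a ligand of beta-catenin and other WNT routes, had a start covered over 256 bases in Irx5KO and 56 in WT. The 250 bases before these 5 starts are printed 5′ to 3′ because they carry the difference, with capitals for bases inside an Irx5KO peak and outside every WT peak.
Wnt10b, chr15:98778151-98778400, minus strand: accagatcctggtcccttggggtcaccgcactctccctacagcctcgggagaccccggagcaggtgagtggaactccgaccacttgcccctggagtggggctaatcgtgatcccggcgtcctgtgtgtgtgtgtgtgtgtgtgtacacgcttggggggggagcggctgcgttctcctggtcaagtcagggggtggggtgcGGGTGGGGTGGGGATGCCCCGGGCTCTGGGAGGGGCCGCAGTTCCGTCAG
Wnt5b (inner start), chr6:119449387-119449636, minus strand: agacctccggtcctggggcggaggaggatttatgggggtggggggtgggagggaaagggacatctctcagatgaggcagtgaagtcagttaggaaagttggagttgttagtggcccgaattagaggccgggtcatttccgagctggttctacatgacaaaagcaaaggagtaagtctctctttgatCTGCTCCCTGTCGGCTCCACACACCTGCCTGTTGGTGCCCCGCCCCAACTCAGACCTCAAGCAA
Wnt11 (inner start), chr7:98838595-98838844, plus strand: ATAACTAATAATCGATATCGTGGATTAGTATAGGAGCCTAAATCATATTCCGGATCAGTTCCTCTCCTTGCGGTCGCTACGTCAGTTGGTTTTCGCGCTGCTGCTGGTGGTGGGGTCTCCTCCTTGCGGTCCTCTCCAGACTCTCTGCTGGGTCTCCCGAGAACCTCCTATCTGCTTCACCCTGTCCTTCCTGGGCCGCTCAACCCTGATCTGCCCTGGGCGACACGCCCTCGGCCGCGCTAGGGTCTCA
Ror2, chr13:53286125-53286374, minus strand: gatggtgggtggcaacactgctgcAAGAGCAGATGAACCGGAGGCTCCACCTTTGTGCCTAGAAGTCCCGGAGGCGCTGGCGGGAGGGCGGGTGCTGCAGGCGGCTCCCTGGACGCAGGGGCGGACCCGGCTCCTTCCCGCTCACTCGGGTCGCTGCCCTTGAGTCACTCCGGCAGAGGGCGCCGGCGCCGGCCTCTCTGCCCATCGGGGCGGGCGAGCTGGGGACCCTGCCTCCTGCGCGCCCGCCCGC
Wnt4, chr4:137277385-137277634, plus strand: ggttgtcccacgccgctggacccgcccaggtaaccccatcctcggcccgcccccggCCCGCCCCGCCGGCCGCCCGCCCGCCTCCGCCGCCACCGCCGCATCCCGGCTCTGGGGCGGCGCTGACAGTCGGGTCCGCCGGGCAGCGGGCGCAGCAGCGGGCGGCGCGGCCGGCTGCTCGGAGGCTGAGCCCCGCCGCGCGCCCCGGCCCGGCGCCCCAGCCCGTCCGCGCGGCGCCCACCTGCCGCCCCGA

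In these stretches the capitals mark 50 bases for Wnt10b, 64 for Wnt5b, 250 for Wnt11, 226 for Ror2 and 194 for Wnt4. At Wnt10b the capitals lie next to the start and belong to an Irx5KO peak of 210 bp. At Wnt11 they fill the whole stretch. At Ror2 the Irx5KO peak (chr13:53285911-53286350) sat between 2 WT peaks (chr13:53285481-53285950 and chr13:53286421-53286650), so both lists had open chromatin near this start and differed in where the borders lay. The nearest WT peak was 174 bp from this start, 106 bp from the inner Wnt11 start and 195 bp from the Wnt4 start, but 1206 bp from the inner Wnt5b start and 1480 bp from the Wnt10b start.

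Counting bases of the 300, 13 of the 28 windows were covered more in Irx5KO, 1 more in WT (Wnt2, 185 against 195) and 14 equally. Among the 21 windows covered in both lists, 9 were covered more in Irx5KO, 1 more in WT and 11 equally. Among all promoter windows 22.4% were covered more in Irx5KO and 9.53% more in WT. As a group, member promoters were rich in CG, with a median of 30 CG dinucleotides against 13 over all windows. The windows of Wnt8b (6), Ror1 and Wnt16 (10 each), Wls (11) and the inner and middle Wnt5b starts (7 and 4) lay below 13. Among the 3283 windows with at least 30 CG, 23.8% were covered more in Irx5KO and 4.45% more in WT. CG content therefore moved with the direction, since WT was rarely ahead at CG-rich starts in general, and its part in the result was not tested. Examples were Wnt3a, with 300 bases in Irx5KO and 121 in WT, Ryk with 300 and 159, the outer start of Wnt11 with 300 and 189, and Ror1 with 300 and 220. Full cover in both lists was found at the starts of Wls, Wnt2b, Wnt9a, Wnt9b, Wnt16, Fzd1, Fzd4, Fzd5, Fzd7, Fzd9 and Fzd10. The starts of Wnt1 and Wnt8b and the middle start of Wnt5b were covered in neither list.

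TCF/LEF and Iroquois motifs were searched in the windows on both strands. The TCF/LEF core, spelled TCAAAG or CTTTGA, occurred in 4 of 28 member windows (14.3%) and in 14.4% of all windows. The 4 windows were those of Fzd1, Ror1, the outer start of Wnt11 and the inner start of Wnt5b. The palindromic Iroquois site ACANNTGT occurred in 0 of 28 member windows and in 6.06% of all windows. The starts of Wnt6, Wnt9b, Wnt10b and Fzd4 held neither motif. A match or its lack says only which letters stand in a window.

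Over the wider regions, the WNT genes carried more peaks in the Irx5KO list than in the WT list, and the surplus was made of peaks listed in Irx5KO only. Of the 463 Irx5KO peaks 300 were shared and 163 were not, and of the 394 WT peaks 300 were shared and 94 were not. The number of shared peaks was therefore the same, which is 64.8% (60.3 to 69.0) of the Irx5KO peaks and 76.1% (71.7 to 80.1) of the WT peaks. Over all coding genes these were 76.7% and 74.7%, so the WNT genes lay below the genome in the Irx5KO list and near it in the WT list. Among the genotype-only peaks of the 35 genes, the Irx5KO-only share was 63.4% (57.4 to 69.1), against 48.0% (47.7 to 48.3) over all coding genes. The bars of peaks per gene show the surplus spread over many members.

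**Figure D1:**
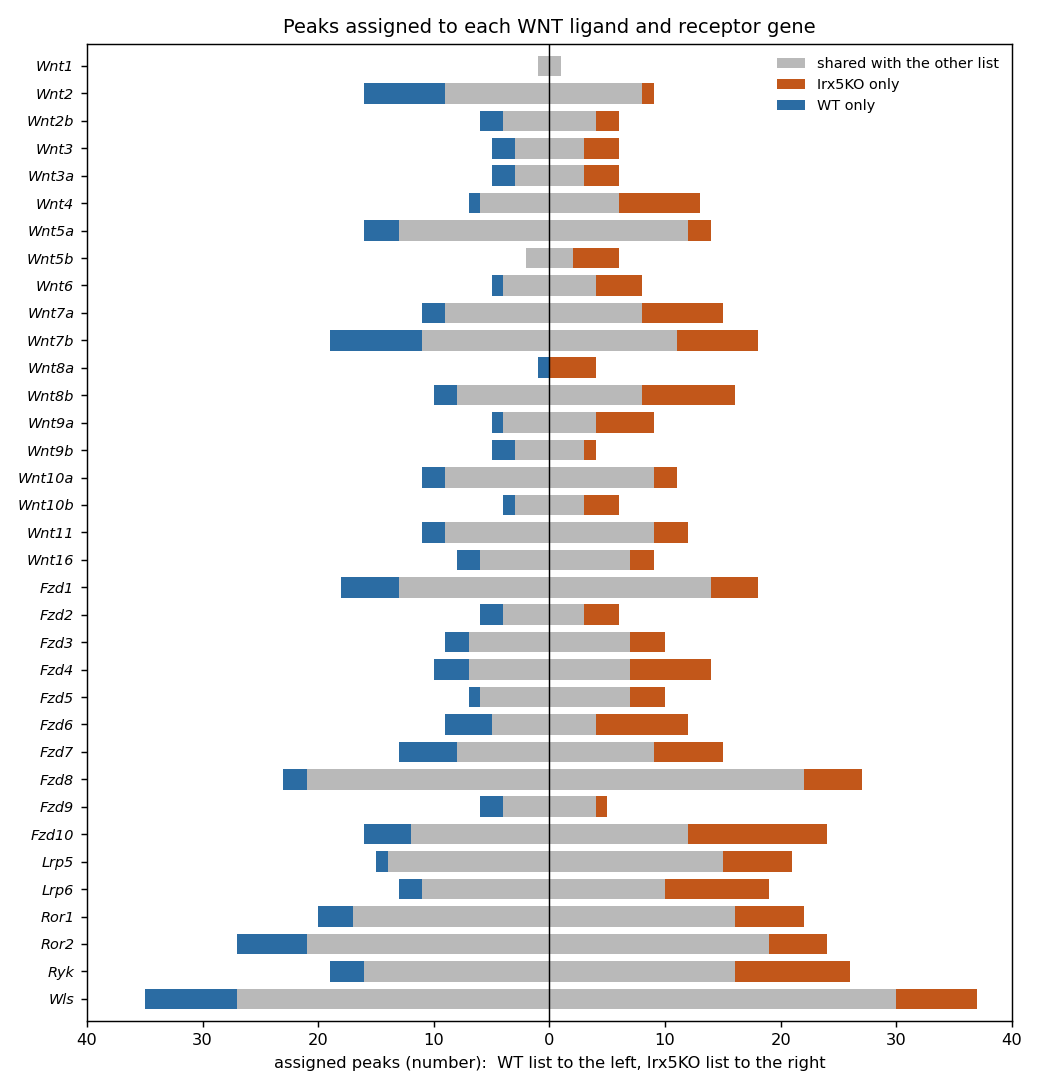
Number of peaks assigned to each of the 35 genes, with the WT list to the left and the Irx5KO list to the right (x axis, number of peaks), split into shared (grey), Irx5KO-only (orange) and WT-only (blue). Orange is longer than blue for 23 genes and shorter for 8, of which Wnt2 has the widest gap.

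Counted by gene, Irx5KO-only peaks outnumbered WT-only peaks at 23 members, the reverse held at 8, and 4 were equal. Among all coding genes 36.4% had more Irx5KO-only and 36.6% more WT-only peaks. The median difference was 1 peak for the members and 0 for all coding genes. Members had larger assigned regions than other genes, with a median of 77.0 kb against 46.5 kb. At least 1 genotype-only peak was found at 34 of the 35, and at 18705 of the 21887 coding genes. Among coding genes with at least 1 such peak 42.5% had more Irx5KO-only peaks, among the 8095 genes with at least as many peaks as the median member 35.9% did, and among other genes with a CG-rich promoter 45.5% did. Members held a median of 12 Irx5KO and 10 WT peaks, against 7 and 7 for all coding genes. A fixed surplus is easier to reach with more peaks, so the next 2 comparisons are not matched for peak number. A surplus of at least 5 Irx5KO-only peaks was found at 7 members, against 3.65% of all coding genes. A surplus of at least 5 WT-only peaks was found at 1 member, Wnt2, against 6.6%. Most of these peaks were weak. Their median score percentile within the own list was 11.9 for Irx5KO-only and 22.4 for WT-only member peaks, against 49.4 and 49.9 for shared ones. Over all assigned peaks these were 15.5 and 17.95, against 57.1 and 58.1 for shared ones, so genotype-only peaks were weak in general. Among peaks that scored in the upper 50% of their list, only 14 Irx5KO-only and 10 WT-only peaks were left at the members, a share of 58.3% (38.8 to 75.5) whose interval includes the 44.7% of all coding genes there.

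**Figure D2:**
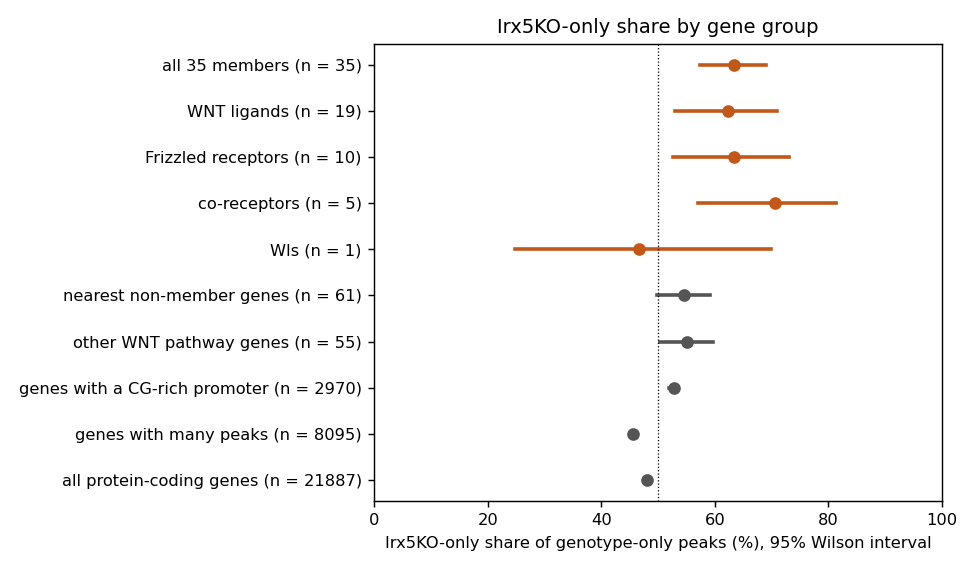
Irx5KO-only share of genotype-only peaks (x axis, percent) for the members, their roles and 5 comparison groups, as points with 95% Wilson intervals; n is the number of genes. Genes with many peaks have at least as many as the median member, and genes with a CG-rich promoter have at least 30 CG in the window. All 35 members stand at 63.4%, and Wls alone among the roles lies below 50%.

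The 19 WNT ligands held 173 Irx5KO and 148 WT peaks. Of these 68 were Irx5KO-only and 41 WT-only, a share of 62.4% (53.0 to 70.9). More Irx5KO-only peaks were counted at 11 ligands, more WT-only peaks at 4, and equal numbers at 4.
Wnt4 had 13 Irx5KO and 7 WT peaks, with 7 Irx5KO-only and 1 WT-only (chromosome 4, 137277635 to 137299501). Its 7 Irx5KO-only peaks included 4 within 5 kb downstream of the start, at 0.746, 1.95, 4.01 and 4.29 kb. The first WT peak downstream of the start was a shared one with its midpoint at 5.27 kb. The strongest Wnt4 peaks, 18.7 to 19.3 kb upstream, were shared and ranked at percentiles 95.6 and 97.2 of the Irx5KO list. All 7 Irx5KO-only peaks were weak, at percentile 13.3 or below.

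Wnt8b, a ligand best known from the developing brain, had 16 Irx5KO and 10 WT peaks on chromosome 19 (44493472 to 44514273). Of these, 8 were Irx5KO-only and 2 WT-only. Its Irx5KO-only peak 0.672 kb upstream of the start and a shared peak that reached closer to the start in Irx5KO made it, beside Wnt10b, the other gene with a peak within 1000 bp of the start in Irx5KO and none in WT. In WT that shared peak ended 1072 bp from the start, only just beyond the limit. Wnt7a, a ligand of epithelia, had 15 and 11 peaks with 7 and 2 genotype-only. Wnt9a had 9 and 5 peaks with 5 and 1 genotype-only. Wnt5b, a relative of Wnt5a, had 6 and 2 peaks, and both of its WT peaks were shared. These counts leave out the shared peak at its outer start, 740 bp wide in Irx5KO and 760 bp in WT, which lay nearer to the end of another gene. Its 4 Irx5KO-only peaks all lay inside the gene as annotated (chromosome 6, 119432531 to 119544824).

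Wnt2 stood apart among the ligands, since its difference ran the other way. It had 9 Irx5KO and 16 WT peaks on chromosome 6 (17985474 to 18032772), with 1 Irx5KO-only and 7 WT-only. Of the 7, 3 lay beyond the lower gene end and 4 inside the gene. Their score percentiles ran from 0.158 to 41.9, so each was in the lower 50% of the WT list. The other ligands with more WT-only peaks, Wnt5a (2 and 3), Wnt7b (7 and 8) and Wnt9b (1 and 2), differed by 1 peak. Wnt5a, the main ligand of Ror2, had 14 Irx5KO and 16 WT peaks, and Wnt7b had 18 and 19, the most of any ligand in the WT list. Equal genotype-only numbers were found at Wnt1 (0 and 0), Wnt2b, Wnt10a and Wnt16 (2 and 2 each). The remaining ligands had a small surplus in Irx5KO: Wnt3 and Wnt3a with 3 against 2, Wnt11 with 3 against 2, Wnt6 with 4 against 1, Wnt8a with 4 against 1 and Wnt10b with 3 against 1.

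Of the ligands, 8 stand in 4 neighbouring pairs, so their regions and covered windows are not independent. Wnt1 and Wnt10b lie 11.7 kb apart on chromosome 15 and held 7 Irx5KO and 5 WT peaks together. Wnt6 and Wnt10a lie 6.70 kb apart on chromosome 1 and held 19 and 16. Wnt3 and Wnt9b, whose annotated spans overlap by about 1.1 kb on chromosome 11, held 10 and 10, with 4 Irx5KO-only and 4 WT-only. Wnt3a and Wnt9a lie 16.1 kb apart on chromosome 11 and held 15 and 10, with 8 and 3 genotype-only. The pairs therefore differed among themselves: the Wnt3 and Wnt9b pair was balanced and the Wnt3a and Wnt9a pair was not.

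**Figure D3:**
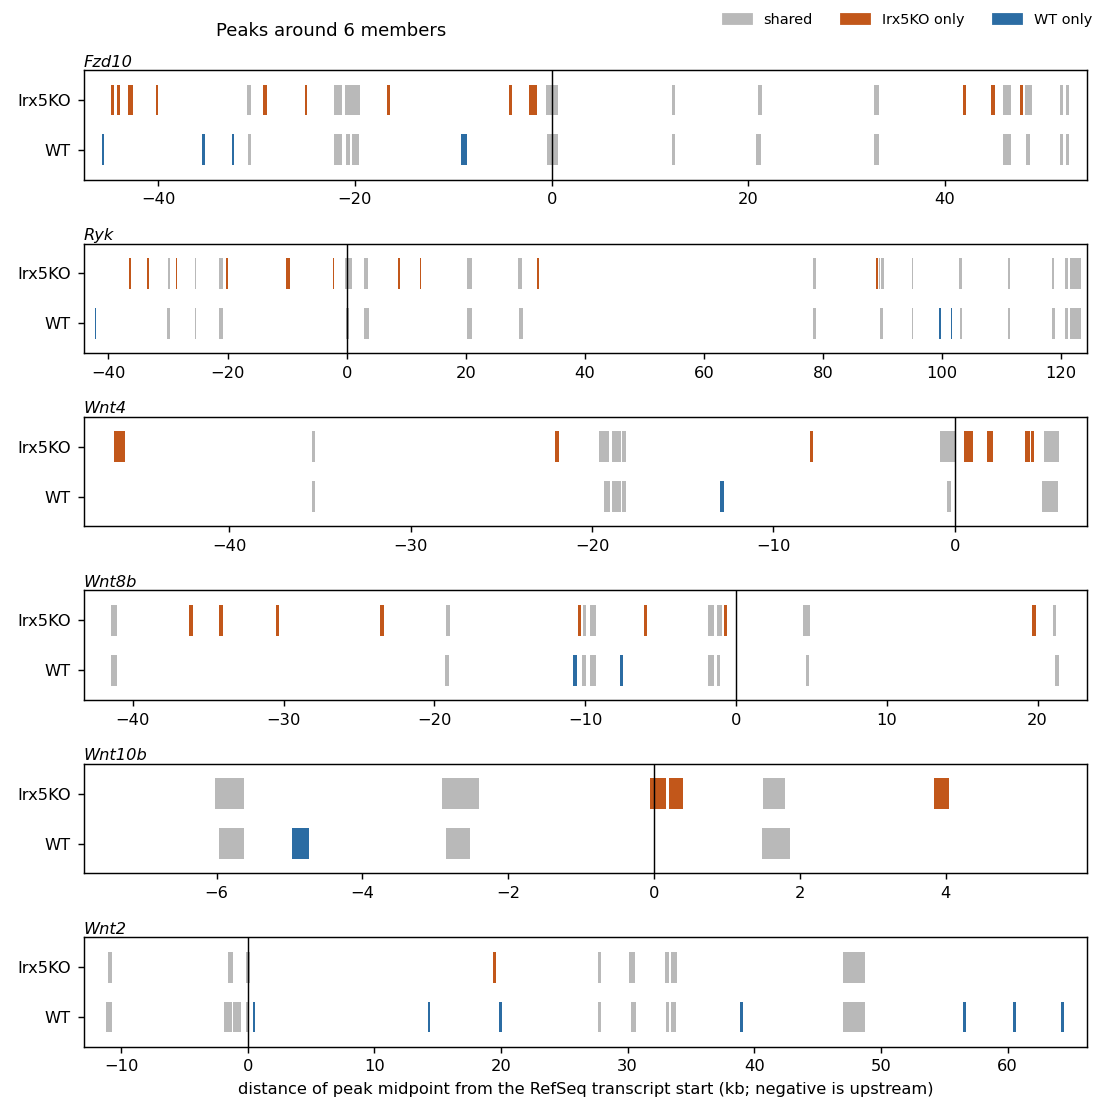
Peaks of the Irx5KO list (upper row) and the WT list (lower row) around 6 genes, by distance from the RefSeq transcript start (x axis, kb, own scale in each panel, negative upstream); bars have the width of the peak with a minimum of 0.15 kb for visibility. Grey peaks are shared, and Wnt10b shows 2 Irx5KO-only peaks at its start where WT has none, while 7 of 16 WT peaks at Wnt2 are WT-only.

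The 10 Frizzled genes, which encode membrane-spanning receptors of WNT proteins, held 141 Irx5KO and 117 WT peaks. Among them 52 were Irx5KO-only and 30 WT-only, a share of 63.4% (52.6 to 73.0). More Irx5KO-only peaks were counted at 8 of the 10, and more WT-only peaks at Fzd1 (4 and 5) and Fzd9 (1 and 2).
Fzd10 had the largest difference of all members, with 24 Irx5KO and 16 WT peaks, of which 12 were Irx5KO-only and 4 WT-only (chromosome 5, 128601106 to 128604093). A shared peak lay over its start, 1250 bp wide in Irx5KO and 1090 bp wide in WT. The 12 Irx5KO-only peaks lay from 44.7 kb upstream to 47.8 kb downstream of the start, all outside the gene. Only 1 of them, 44.1 kb upstream, was in the upper 50% of the Irx5KO list, at percentile 56.9. Without Fzd10 the Irx5KO-only share over the other members was 62.7% (56.4 to 68.5).

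Fzd8 had the most peaks among the Frizzled genes, with 27 in Irx5KO and 23 in WT, and most of them were shared. Peaks covered 42.9% of Fzd8 and its flanks of 50 kb in Irx5KO and 42.3% in WT, the highest cover of any member in either list. This region also held one of the widest member peaks, of 6270 bp against 6240 bp, 7.26 and 7.28 kb from the gene. Fzd4, which also receives the signal Norrin, had 14 and 10 peaks with 7 and 3 genotype-only, and the widest member peak of both lists, 6450 and 6460 bp wide, 27.1 kb upstream. Fzd6, a receptor known for orienting hair follicles, had 12 and 9 peaks with 8 and 4 genotype-only. Fzd7 had 15 and 13 with 6 and 5, and Fzd1 had 18 and 18. The smaller counts were 10 and 7 at Fzd5 (3 and 1 genotype-only), 10 and 9 at Fzd3 (3 and 2), 6 and 6 at Fzd2 (3 and 2) and 5 and 6 at Fzd9.

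The 5 co-receptors had the highest Irx5KO-only share of the roles, 70.6% (57.0 to 81.3), from 36 and 15 peaks. The intervals of ligands, Frizzled receptors and co-receptors overlap, so no order among the roles is shown.
Lrp6, the main co-receptor of the beta-catenin route, had 19 Irx5KO and 13 WT peaks, with 9 and 2 genotype-only (chromosome 6, 134446476 to 134566913). Inside the gene 6 of its peaks were Irx5KO-only and 1 was WT-only. The start of the gene cannot be named for Lrp6 from the promoter table, but 1 gene end carried a shared peak of 1090 bp in Irx5KO that the WT list split into 2 peaks of 230 and 760 bp. Its close relative Lrp5 had 21 and 15 peaks with 6 and 1 genotype-only, 5 of the 6 inside the gene (chromosome 19, 3584825 to 3686585). Lrp5 and Lrp6 thus shared the direction of most members.

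Ryk, a receptor with an inactive kinase domain, had 26 Irx5KO and 19 WT peaks, with 10 and 3 genotype-only (chromosome 9, 102834920 to 102908307). The 10 were spread from 36.4 kb upstream to 89.1 kb downstream of the start. Ror1 and Ror2 encode receptor kinases of the Wnt5a route. Ror1 had 22 and 20 peaks with 6 and 3 genotype-only, and Ror2 had 24 and 27 with 5 and 6. Ror1 spans 349 kb, so its inner part lies more than 50 kb from either end and took no part in these counts. The same holds for smaller inner parts of Ror2 (176.8 kb long), Lrp6 (120.4 kb), Wnt5b (112.3 kb) and Lrp5 (101.8 kb). Ror2 was the sole co-receptor with more WT-only peaks.

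Wls, which encodes the carrier that brings WNT proteins from the Golgi to the cell surface, had the most peaks of all members, 37 in Irx5KO and 35 in WT (chromosome 3, 159839650 to 159938666). Its genotype-only peaks numbered 7 and 8, a share of 46.7% (24.8 to 69.9). A shared peak of 2560 bp (Irx5KO) or 2500 bp (WT) covered its start. Wls was thus close to balanced, in contrast to most receptor genes, though its interval includes their share.

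The peaks of the WNT genes with the highest scores were shared. Scores are the authors' own value per peak, and here they are compared inside 1 list alone. The highest-ranked member peak of both lists was a peak of 630 bp just beyond the downstream end of Wls (chr3:159939141-159939770 in Irx5KO, chr3:159939151-159939780 in WT), with rank 31 in Irx5KO and 28 in WT. Next came a peak inside Ror2 (chr13:53269741-53270080 in Irx5KO), with ranks 102 and 97, and one inside Wnt7b (chr15:85542091-85542310 in Irx5KO), with ranks 554 and 548. These 3 peaks were 220 to 630 bp wide. In Irx5KO they scored 75206, 13630 and 2391, while a peak inside Lrp6 with rank 2892 scored 1178. What such outlying scores of narrow peaks reflect was not tested. Among genotype-only peaks the highest ranks were far lower. In Irx5KO they were a peak 19.3 kb upstream of Wnt3 (percentile 76.0), one inside Fzd3 (72.3) and one 30.4 kb upstream of Wnt8b (65.2). In WT they were peaks near Fzd1 (percentile 87.6, 34.5 kb downstream of the start), Wnt5a (67.5) and Wnt9a (60.1). No genotype-only member peak was among the upper 10% of its list. Such peaks seldom scored high at other genes either. In the upper 50% of their list were 7.51% of all assigned Irx5KO-only peaks and 8.54% of WT-only ones, against 8.59% and 10.6% at the members.

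Gene-end peaks were nearly general among these genes. Of the 35 members 30 had one in both lists, 3 in Irx5KO only (Wnt6, Wnt8a and Wnt10b), 1 in WT only (Wnt9b) and 1 in neither (Wnt1). Over all coding genes 75.2% had one in both lists, 14.7% had none, 6.07% had one in the Irx5KO list alone and 3.99% in the WT list alone. All 10 Frizzled genes, all 5 co-receptors and Wls had one in both lists, so each exception was a ligand.
The exceptions were of different kinds. At Wnt10b, 2 Irx5KO-only peaks, of 200 and 210 bp, lay at the start at percentiles 13.3 and 7.71 of the list, and the nearest WT peak was 1536 bp from that gene end. At Wnt6 the transcript start given by RefSeq lay inside the annotated span and had peaks in both lists (260 and 179 of the 300 bases covered), and the exception came from a weak Irx5KO peak 992 bp from the other end. At Wnt9b the start was fully covered in both lists as well, and the WT peaks that set it apart were a 200 bp peak at the lower end and the peak of the Wnt3 start, 952 bp from the upper end. The latter peak was shared, and in Irx5KO it lay 1102 bp from that end, only just outside the window. At Wnt8a (chromosome 18, 34542327 to 34548061) all 4 Irx5KO peaks and the 1 WT peak were genotype-only. At Wnt1 the nearest peak lay 3287 bp from the start in Irx5KO and 3367 bp in WT. Taken start by start, 23 of the 28 RefSeq starts had a peak within 1000 bp in both lists, 2 had none, and 3 had one in Irx5KO alone, those of Wnt10b and Wnt8b and the inner start of Wnt5b. The nearest WT peaks were 1480, 1072 and 1206 bp from these 3 starts. Taken by gene, with any start counting, 22 of the 25 genes had a peak in both lists, 1 had none, 2 had it in Irx5KO alone and 0 in WT alone, against 72.65%, 17.97%, 5.75% and 3.62% of the 17492 coding genes in the promoter table.

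Frizzled genes and ligands differed in how high their best gene-end peak ranked. Above percentile 50 of their list by score were the best gene-end peaks of 8 of 10 Frizzled genes in Irx5KO and 7 of 10 in WT, but of 5 of 19 ligands in Irx5KO and 1 of 19 in WT. The 1 ligand above it in both lists was Wnt10a, at percentiles 82.9 and 85.2. Among Frizzled genes Fzd4 stood at 96.4 and 87.0, Fzd8 at 95.4 and 83.1 and Fzd5 at 93.8 and 85.6. Over the 33 and 31 members with such a peak, the median percentile was 48.4 in Irx5KO and 29.4 in WT. The WT peaks of Wnt9a and Fzd3, at percentile 49.92, had exactly the median score. With peaks at the median score counted in, so that Wnt9a and Fzd3 belong to both lists, 12 members had a gene-end peak in both, 19 had none, 4 had it in Irx5KO alone (Wnt4, Wnt8b, Wnt16 and Lrp6) and 0 in WT alone. All coding genes gave 40.4%, 45.3%, 11.7% and 2.63%, so Irx5KO was ahead in this comparison for genes in general.

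Covered length gave the most even picture over the members. Within the gene and 50 kb on each side, 33 of the 35 members had more bases covered by peaks in Irx5KO than in WT, and the other two were Wnt2 and Wls. Among all coding genes 58.2% had more in Irx5KO, although the Irx5KO list as a whole covered less of the genome, 453.8 Mb against 465.3 Mb. The ratio of Irx5KO to WT covered length ran from 0.880 at Wnt2 to 1.92 at Wnt4, with a median of 1.33, against a median of 1.03 over all coding genes. Such sums depend on how many peaks were called and how wide they are. At least 1.5 times as much was covered in Irx5KO at 7 members, against 5.72% of all coding genes, and the reverse occurred at 0 members against 0.53%. The 7 were Wnt4 (5.45 kb against 2.84 kb), Wnt10b (6.21 kb against 3.52 kb), Wnt9a (7.31 kb against 4.41 kb), Wnt11 (8.07 kb against 4.87 kb), Wnt3a (10.98 kb against 7.07 kb), Wnt10a (11.8 kb against 7.74 kb) and Fzd7 (9.91 kb against 6.46 kb). Of these 7, 6 were ligands. Windows of paired ligands overlap, so Wnt3a shares bases with Wnt9a in this count, as Wnt10a does with Wnt6 and Wnt10b with Wnt1.

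**Figure D4:**
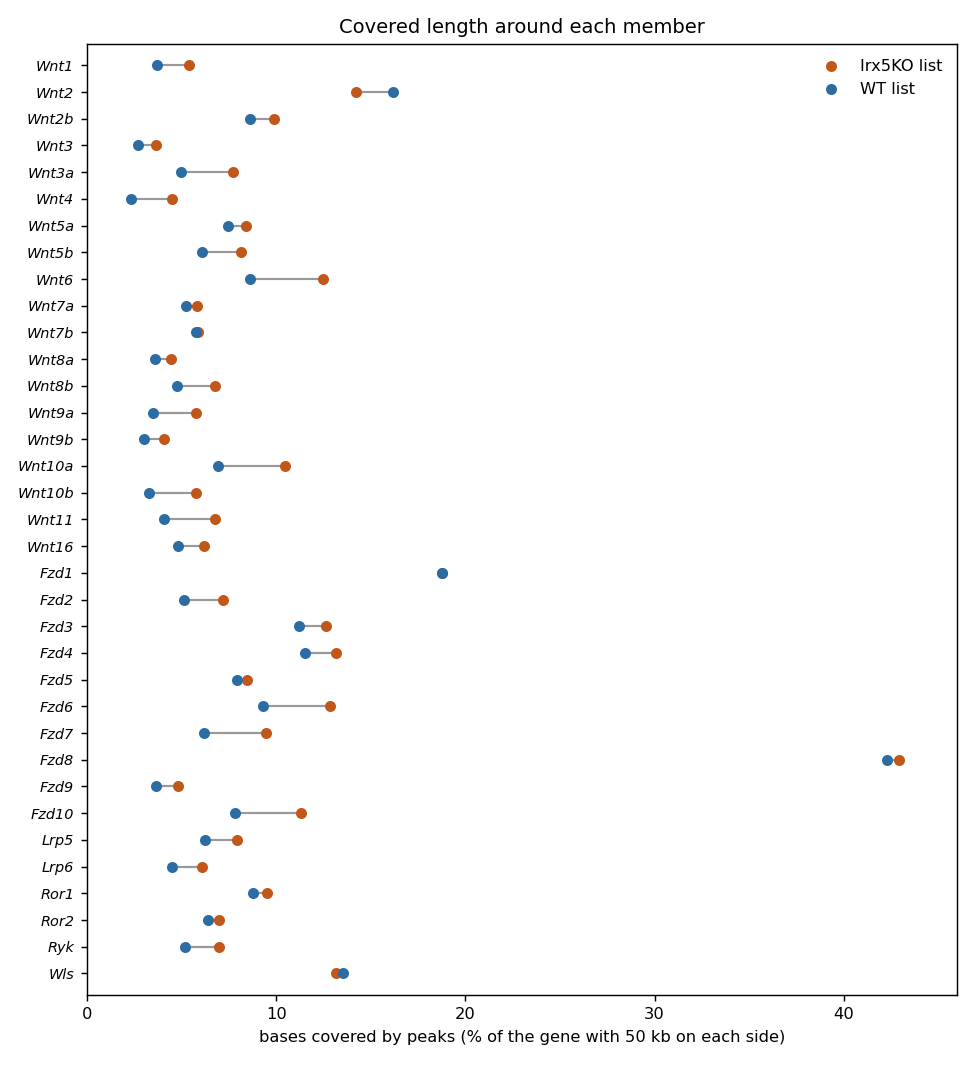
Bases covered by peaks as a percentage of each gene with 50 kb on each side (x axis), for the Irx5KO list (orange) and the WT list (blue), 1 value per list. The orange point lies to the right for 33 genes and to the left for Wnt2 and Wls; at Fzd1 the points coincide at 18.8% and 18.7%.

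Peaks that paired 1 to 1 between the lists were also compared by width. Of 261 such pairs at the members, 130 (49.8%) were wider in Irx5KO and 107 (41%) wider in WT. Over all 140095 assigned pairs 44.5% were wider in Irx5KO and 47.0% in WT. The median width at the members was 470 bp (Irx5KO) and 410 bp (WT), and 460 bp in both lists over all pairs, but the median ratio of a pair was 1 in both sets. Genes with a CG-rich promoter, members left out, showed 48.3% and 42.9%, close to the members.

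Other genes were counted in the same way to show how far the WNT ligands and receptors differ from their surroundings. The nearest coding gene on each side of a member, 61 genes without the members, gave a share of 54.5% (49.7 to 59.2), from 230 Irx5KO-only and 192 WT-only ones. Of these neighbours 78.7% had more bases covered in Irx5KO, and their windows can overlap those of members. The 2970 other genes with a CG-rich promoter had a share of 52.7% (52.0 to 53.5), and 72% of them were covered more in Irx5KO. Both groups thus lay between the members and the genome as a whole. A list of 55 other WNT pathway genes, from R-spondins and their Lgr receptors to the destruction complex, TCF/LEF factors and secreted antagonists, gave an Irx5KO-only share of 55.1% (50.4 to 59.7), from 239 and 195 peaks. In that list the Irx5KO-only peaks were more numerous at 30 genes, the WT-only peaks at 16, and 9 were equal. Over all coding genes the first held at 36.4% and the second at 36.6%. A gene-end peak in both lists was found at 47 of the 55, against 75.2% of all coding genes. Axin2, a feedback target of beta-catenin, had 8 and 2 genotype-only peaks in that order, and neither list had a peak at its ends. Lgr5, an R-spondin receptor and HFSC marker, had 3 and 4, and Ctnnb1, which encodes beta-catenin, had 1 and 2. Porcn, which attaches the lipid to WNT proteins, had 1 and 5, so it ran against the direction of most ligands. The 10 HFSC marker genes, of which Lgr5 and Tcf7l1 are also in the pathway list, had 53 and 28, a share of 65.4% (54.6 to 74.9), near that of the WNT genes, with Tcf7l1 giving 18 and 4 of them. The 22 markers of non-epithelial cells had 96 and 77, a share of 55.5% (48.0 to 62.7). More bases were covered in Irx5KO at all 10 HFSC markers, 42 of the 55 pathway genes and 13 of the 22 non-epithelial markers. Over all coding genes 58.2% were covered more in Irx5KO, so the non-epithelial markers lay near that share. The median ratios of covered length were 1.39, 1.13 and 1.07, against 1.03 over all coding genes, so the HFSC markers matched the members here too. The members' surplus is therefore not shown to be particular to WNT genes. With 1 pooled list each, genotype and any difference in sorting or library making cannot be told apart.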

How the data were processed

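ATAC-seq was done on 4 HFSC samples, 2 Irx5KO and 2 WT. Per the submitters' processing notes the build was mm10, and Genrich 0.6, Bowtie2, cutadapt 2.9, ChIPseeker 1.24.0, deepTools 3.4.2 and FastQC were used. The handling of duplicates, any shift for the Tn5 cut, and tool settings were not given in the sources used here. Each list deposited by the authors pools both replicates of a genotype and gives peak positions and a score of at least 50. The deposited signal, p and q columns hold 0 throughout and were not used.

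Gene spans and promoters came from RefSeq tables of GRCm38.p6, the assembly of mm10. Exons and introns were not told apart, and 10 members had no promoter entry. Peaks on unplaced contigs (1188 and 1733) were left out. Overlap, assignment and gene-end code was tested on simulated data against direct counting. Python 3.11.15, numpy 2.4.6, pandas 2.3.3 and matplotlib 3.10.9 were used. Members and lists were chosen with earlier results of these data known. Members described further had a gene-end peak in 1 list or none, were among the 6 with the largest difference in each direction, or the 5 with the most peaks. Per list, the 3 highest-ranked peaks and the 3 highest-ranked genotype-only peaks were named. Other genes and the printed promoters were chosen after their values were seen, and so were the counts by CG content, neighbouring genes and paired widths. Alternatives changed the score threshold, list length, overlap, distance, window and peak width.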

Additional observations from a re-analysis of the deposited data

How the results depend on the processing

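The Irx5KO-only share at the members stayed between 58.3% and 66.1% under all 7 alternatives run. The shared percentage moved with score and overlap rule. In the upper 50% by score it was 91.4% in Irx5KO and 93.8% in WT, against 96.15% and 95.27% over all coding genes. When 50% of the peak had to be covered, it was 57.45% in Irx5KO, against 72% over all coding genes. In WT it was then 72.59%, against 70.34%. With peaks at or above the median score, gene-end status was both for 12 members, WT only for 0 and neither for 19. With windows of 3000 bp it was Irx5KO only for 0 members and WT only for 0, and by transcript starts WT only for 0, where fewer genes could be used. Members covered more in Irx5KO numbered 30 to 33, including lists of equal length, which were added after the data were seen. No paired analysis was possible because each list pools both replicates, and for the same reason no replicate could be left out. Read depth is unknown, so weak peaks listed in 1 genotype alone may lie near the threshold of the other list.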
